A study of Homo sapiens with 9 samples.

Results

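The 33 genes described here encode enzymes that make, recycle and balance nucleotides. They were chosen by name from the pathway and not by their counts, though with earlier results of these data known. All 33 were found among the 17637 genes of the table and passed the filter on low counts (15309 genes tested). They were read as a purine arm of 15 genes, a pyrimidine arm of 6, a deoxynucleotide (dNTP) arm of 10 and 2 kinases that serve all nucleoside diphosphates. Messenger RNA was read in 9 libraries of KOPTK1, an established line of human T-cell acute lymphoblastic leukaemia whose genotype the labels give as WT. In 3 libraries (shDHX15+MYC) the cells carried a lentiviral hairpin against DHX15, an RNA helicase, together with an added MYC coding region. In 3 libraries (shDHX15) they carried that hairpin without added MYC, and in 3 (shcControl) a control hairpin, named for GFP in the count table. The column names give 1 hairpin number for all knockdown libraries, so other effects of that hairpin and loss of DHX15 cannot be told apart. The labels name no empty vector for the MYC construct and do not say whether replicates were separate cultures, so a p-value reflects the spread among these libraries, which may be technical.

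Purine nucleotides are built on the sugar phosphate PRPP, step by step, as far as IMP, from which separate branches lead to AMP and GMP. Pyrimidine nucleotides are made the other way round: the ring is closed first and PRPP is joined to it later, giving UMP and then CTP. Ribonucleotide reductase turns the diphosphates into deoxynucleotides, thymidylate is made by its own route, and salvage enzymes recycle free bases and nucleosides. Proliferating lymphoid cells depend on these routes for RNA and DNA synthesis, and many of the genes are known targets of MYC, which binds the E-box CACGTG.

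Promoters are printed for 5 of the genes, because each holds an E-box and the genes moved in different directions when MYC was added. PPAT and PAICS, which encode the first and a later enzyme of purine ring synthesis, lie head to head. The PAICS start used here was taken because its window holds an E-box. It lies 136 bases from the PPAT start, and 1 window holds both. RefSeq lists other PAICS starts, whose windows (chr4:56410257-56410556 and chr4:56436010-56436309) hold no E-box. NME1 had the highest fold change of the well-read members with added MYC, DCK the lowest, and ATIC, which closes the purine ring, holds 2 E-boxes. Each sequence runs 5′ to 3′ on the strand named, from 250 bases before to 50 bases after the start site of NME1, DCK, ATIC or PAICS, in GRCh38.p14, and is taken from RefSeq. Capitals mark the E-box.
PAICS promoter, chr4:56435502-56435801, plus strand: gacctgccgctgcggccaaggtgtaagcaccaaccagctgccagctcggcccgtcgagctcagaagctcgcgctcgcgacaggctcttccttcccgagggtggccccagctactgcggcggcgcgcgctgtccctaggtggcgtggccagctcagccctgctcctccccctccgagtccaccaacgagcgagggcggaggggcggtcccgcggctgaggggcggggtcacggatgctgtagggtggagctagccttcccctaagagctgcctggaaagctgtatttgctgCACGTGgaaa
NME1 promoter, chr17:51153309-51153608, plus strand: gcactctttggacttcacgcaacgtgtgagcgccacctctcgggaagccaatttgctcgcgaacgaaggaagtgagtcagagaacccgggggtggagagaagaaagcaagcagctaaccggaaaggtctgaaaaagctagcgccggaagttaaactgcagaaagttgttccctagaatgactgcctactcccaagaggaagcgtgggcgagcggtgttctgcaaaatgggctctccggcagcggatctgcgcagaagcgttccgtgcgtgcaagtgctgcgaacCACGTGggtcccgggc
DCK promoter, chr4:70993399-70993698, plus strand: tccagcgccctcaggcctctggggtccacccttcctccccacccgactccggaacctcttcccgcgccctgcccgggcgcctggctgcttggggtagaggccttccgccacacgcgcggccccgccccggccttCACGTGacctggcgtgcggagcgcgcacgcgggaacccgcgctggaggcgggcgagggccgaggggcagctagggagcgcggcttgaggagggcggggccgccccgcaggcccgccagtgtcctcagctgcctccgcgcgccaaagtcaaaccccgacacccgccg
ATIC promoter, chr2:215311809-215312108, plus strand: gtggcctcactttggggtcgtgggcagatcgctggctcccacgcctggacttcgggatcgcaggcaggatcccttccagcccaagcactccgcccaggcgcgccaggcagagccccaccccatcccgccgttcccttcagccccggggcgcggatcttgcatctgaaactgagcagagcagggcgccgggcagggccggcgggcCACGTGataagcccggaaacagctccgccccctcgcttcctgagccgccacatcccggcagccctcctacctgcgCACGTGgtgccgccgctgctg

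Libraries held 42134302 to 59688062 counts. DHX15 stood at 195 ± 2.55 CPM (read counts scaled to library size by TMM) in shDHX15+MYC, 167 ± 13.8 in shDHX15 and 280.3 ± 3.43 in shcControl (SD, n = 3). MYC stood at 7098 ± 153, 86.9 ± 3.78 and 109 ± 0.603 CPM in the same order of groups, with the added MYC in the highest. All 10 T-cell markers were read, and their sum ran from 1916 to 1949 CPM in shDHX15+MYC, from 3078 to 3173 in shDHX15 and from 3616 to 3716 in shcControl. CD3E averaged 365, 544 and 646 CPM in that order. Not all followed this order, with CD5 at 165, 164 and 243 CPM and CD7 at 143, 181 and 158. Summed CPM of 5 B-cell markers ran from 105 to 109 in shDHX15+MYC, from 46.5 to 48.9 in shDHX15 and from 51.1 to 53.1 in shcControl. Nearly all of it was CD79A, at 99.8, 37.4 and 40.2 CPM in that order, and CD79B, at 5.76, 9.52 and 11.6. For 6 myeloid markers the sums were 7.25 to 8.89, 0.623 to 0.869 and 0.708 to 1.31 CPM in that order, for 5 erythroid markers 0.745 to 1.01, 0.554 to 0.707 and 0.543 to 0.801, and for 8 adherent and packaging-cell markers 41.0 to 41.9, 15.1 to 16.2 and 21.7 to 23.0. Of the myeloid markers, ITGAM averaged 3.35, 0.325 and 0.355 CPM in shDHX15+MYC, shDHX15 and shcControl, and CD14 2.73, 0.347 and 0.365. CSF1R averaged 1.10, 0.0 and 0.127 CPM in that order, and MPO 0.0418, 0.0139 and 0.0142. None of the markers counted was at 0 in all libraries, and the part of other cell types in the results was not tested. Library 1 of shDHX15 differed from its replicates: chi-square over degrees of freedom was 17.3 and 16.4 against libraries 2 and 3, and 4.36 between those.

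With DHX15 knocked down, nucleotide enzymes were lower more often than higher, by small amounts. In shDHX15 against shcControl, the comparison that asks what loss of DHX15 does, 16 of 33 were called lower and 5 higher (edgeR quasi-likelihood test, Benjamini-Hochberg adjusted p under 0.05). Of all genes tested 45.0% were called, 23.0% lower and 22.0% higher. Among 10160 better-read genes (average log2 CPM 3 or more) 56.0% were called, 27.7% lower and 28.3% higher. The median log2 fold change of the 33 was -0.12, against -0.0047 for all genes tested. A single change reached 2-fold, the fall of CTPS2, where 2.16% of all genes were called lower and 0.849% higher by that much. Among the 10160 better-read genes, which do not include CTPS2, 19 were called lower and 5 higher by that much. Both nucleoside diphosphate kinases were called lower. In the purine arm 8 of 15 were called lower and 2 higher (median -0.13), in the pyrimidine arm 3 of 6 lower and 1 higher (median -0.16), and in the dNTP arm 3 of 10 lower and 2 higher (median 0.052). Without library 1 of shDHX15, 8 members were called higher and 17 lower. With total-count scaling 8 were called higher and 14 lower, and the share of higher genes among all calls was 64.1%, against 48.8% with TMM. The ranges of the shDHX15 and shcControl libraries did not overlap for 24 of the 33, where 51.1% of all genes showed this.

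With MYC added to the knockdown, the arms went different ways: most pyrimidine genes rose, most dNTP genes fell, and the purine arm was divided. In shDHX15+MYC against shDHX15, the comparison that asks what added MYC changes, 15 of 33 were called higher, 17 lower and 1 neither. DHX15 itself was called higher in shDHX15+MYC, by 0.23 on the log2 scale (edgeR adjusted p = 1.24e-04). Effects of added MYC and of this difference in DHX15 level cannot be told apart here. Of all genes tested 84.7% were called in this comparison, 42.1% higher and 42.6% lower, so a call by itself sets no member apart. In the pyrimidine arm 4 of 6 rose and 2 fell (median log2 fold change 0.53), in the dNTP arm 3 of 10 rose and 7 fell (median -0.48), and in the purine arm 6 of 15 rose and 8 fell (median -0.16). The median over all genes was 0.0058 and that over the better-read genes -0.20. Of those better-read genes 87.6% were called, 33.2% higher and 54.4% lower, so the share of members called lower lay near theirs. Libraries did not overlap for 32 of the 33, and for 85.0% of all genes. Changes of at least 2-fold were called for 4 members higher (NME1, CTPS2, UMPS and SAMHD1) and 4 lower (DCK, PRPS2, GUK1 and APRT), where 21.7% and 14.7% of all genes reached this. Among the 10160 better-read genes 662 were called higher and 1601 lower by that much. CTPS2 and SAMHD1 lie below the limit for better-read genes. Scaling by total counts in place of TMM shifted all genes by 0.20 on the log2 scale here and by 0.27 against shcControl. The purine median then was 0.043, the calls of GMPS and ADSS were lost and ADSL was called higher, while the medians of the pyrimidine arm (0.72) and the dNTP arm (-0.28) kept their signs. Of all calls 58.9% were then higher, against 49.7% with TMM.

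**Figure D1:**
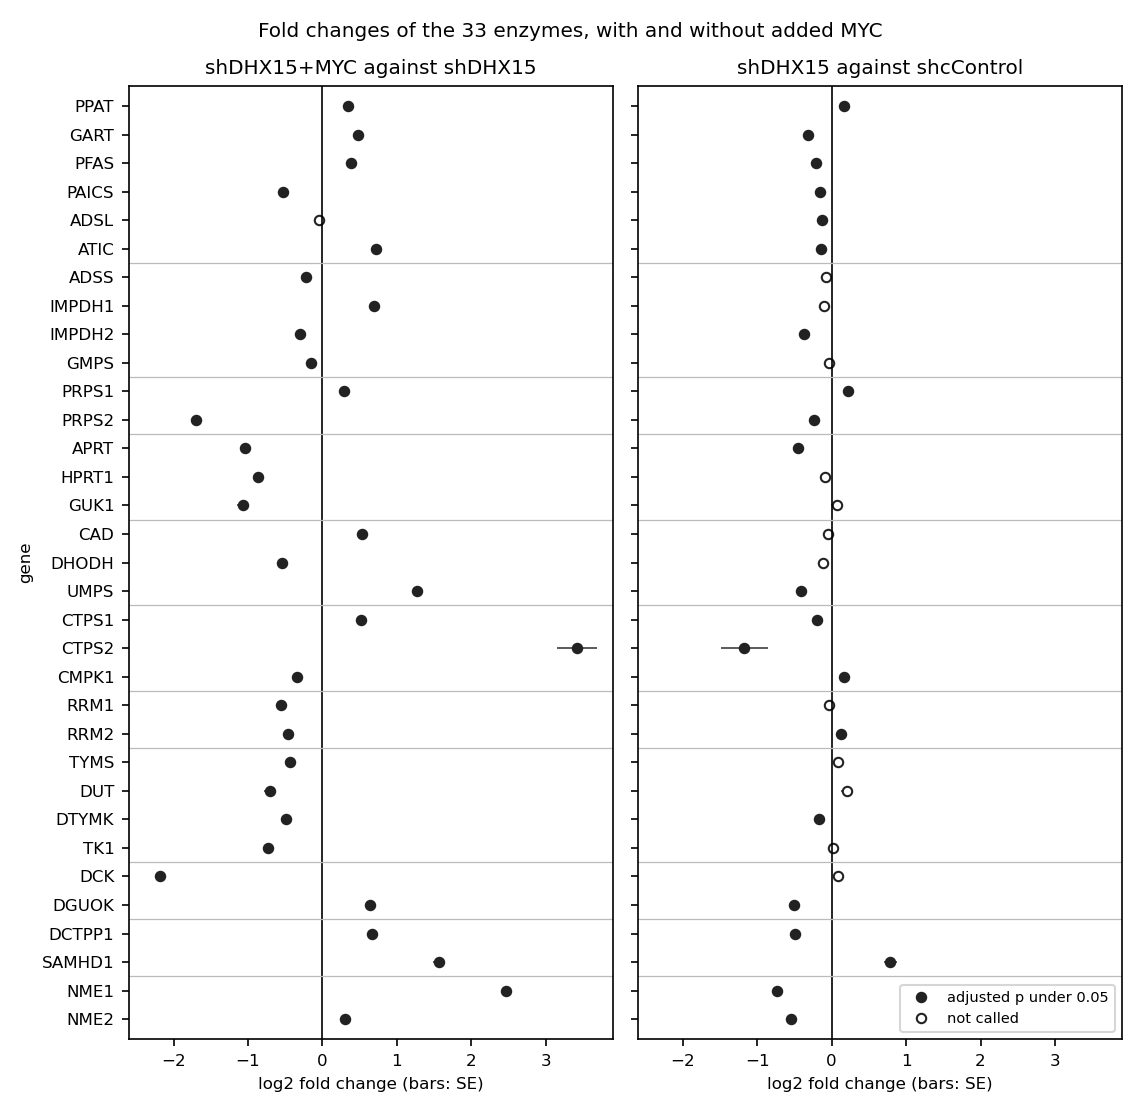
Log2 fold change of each of the 33 enzymes (points, with SE bars) in shDHX15+MYC against shDHX15 (left) and in shDHX15 against shcControl (right), with pathway steps divided by grey lines; filled points were called at an adjusted p under 0.05. Most points on the right lie within 0.5 of 0, while those on the left run from -2.18 (DCK) to 3.42 (CTPS2).

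Set against shcControl, all 33 members were called in shDHX15+MYC, 14 higher and 19 lower. Of all genes tested 84.5% were called in this comparison, 42.0% higher and 42.5% lower, and of better-read genes 87.9%, 33.7% higher and 54.2% lower. Changes of at least 2-fold were called for 3 members higher and 3 lower, against 21.3% and 14.5% of all genes. Among the 10160 better-read genes 664 were called higher and 1611 lower by that much. Medians were -0.20 for the purine arm, 0.41 for the pyrimidine arm and -0.43 for the dNTP arm. With total-count scaling they were 0.069, 0.67 and -0.16, with 15 members higher and 14 lower, and 62.4% of all calls were higher, against 49.7% with TMM. The ranges of the libraries did not overlap for 32 of the 33, PFAS being the exception, where 87.2% of all genes showed this. The comparisons share libraries, so their values for a gene are given side by side and are not independent of each other.

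**Figure D2:**
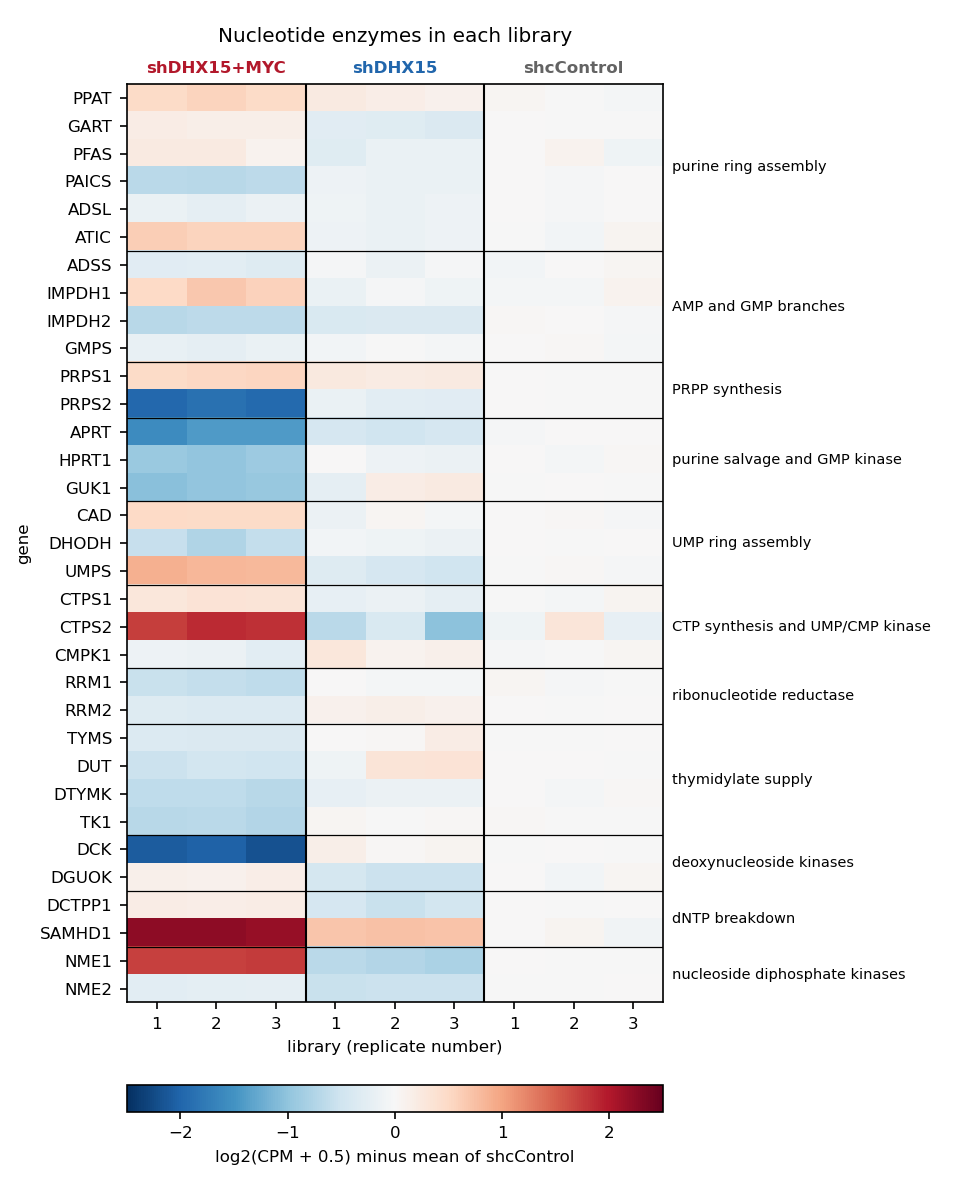
Each cell is the log2(CPM + 0.5) of 1 gene in 1 library minus the mean of that gene in the shcControl libraries, with genes in rows by pathway step and libraries in columns by group. Libraries of a group look alike in most rows, with GUK1 and DUT in library 1 of shDHX15 as exceptions, and NME1, SAMHD1 and CTPS2 are red and DCK, PRPS2 and APRT blue with added MYC.

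The 6 enzymes that assemble the purine ring did not move as 1 block with MYC. PPAT, GART, PFAS and ATIC rose over shDHX15, PAICS fell and ADSL was not called. PPAT, the amidotransferase that commits PRPP to purines, had 74.2, 78.2 and 73.6 CPM in shDHX15+MYC, 61.9, 59.4 and 57.3 in shDHX15 and 54.9, 52.7 and 51.3 in shcControl. It was called higher in both steps, by 0.34 with MYC and by 0.17 in shDHX15 against shcControl (edgeR adjusted p = 1.31e-06 and 0.00509). PAICS, which carries out 2 consecutive ring steps and shares the start region printed above with PPAT, had 233, 229 and 237 CPM in shDHX15+MYC, 343, 334 and 332 in shDHX15 and 378, 368 and 374 in shcControl. It was called lower in both steps (-0.53 and -0.15, edgeR adjusted p = 1.06e-11 and 3.64e-04), so these neighbours moved in opposite directions. The E-box at position -182 from the PPAT start and at position 41 from the PAICS start used above is the same 6 bases (chromosome 4, 56435792 to 56435797).

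GART, PFAS and ATIC were lower in shDHX15 and higher with MYC. GART, which joins 3 ring activities in 1 protein, had 137, 134 and 134 CPM in shDHX15+MYC, 99.4, 98.2 and 94.0 in shDHX15 and 122, 119.7 and 120.3 in shcControl. The groups did not overlap, and GART changed by 0.47 with MYC and by -0.31 in the knockdown (edgeR adjusted p = 4.02e-10 and 1.14e-06). ATIC, the last enzyme before IMP, had 139, 134 and 134 CPM in shDHX15+MYC, 82.9, 80.3 and 83.4 in shDHX15 and 90.1, 86.7 and 95.8 in shcControl. Its change with MYC (0.73, adjusted p = 9.86e-12) was larger than that in the knockdown (-0.15, adjusted p = 0.00686), and its call in the knockdown was lost without library 3 of shcControl (adjusted p = 0.0587) and with total-count scaling (0.117). PFAS, which adds a nitrogen from glutamine, had 81.5, 81.3 and 74.6 CPM in shDHX15+MYC, 56.9, 62.7 and 61.9 in shDHX15 and 70.0, 74.8 and 65.2 in shcControl. It changed by 0.39 with MYC and -0.21 in the knockdown (edgeR adjusted p = 3.21e-06 and 0.00445), and its call against shcControl was lost without library 3 of shcControl (adjusted p = 0.0596). ADSL, which acts both in the ring and on the way to AMP, averaged 83.8 ± 2.196 CPM in shDHX15+MYC, 86.5 ± 1.74 in shDHX15 and 94.9 ± 1.55 in shcControl. Its change with MYC was -0.045 (adjusted p = 0.248), and that in the knockdown -0.13 (adjusted p = 0.0059, or 0.136 with total-count scaling).

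Past IMP, the GMP branch showed its isoenzymes moving apart. IMPDH1 and IMPDH2 carry out the same oxidation, the rate-limiting step towards GMP. IMPDH2 averaged 195 ± 2.69 CPM in shDHX15+MYC, 239.9 ± 2.96 in shDHX15 and 310.4 ± 6.16 in shcControl, and was called lower in both steps (-0.30 and -0.37, edgeR adjusted p = 3.87e-08 and 3.40e-08). IMPDH1 averaged 35.5 ± 2.05, 21.9 ± 1.16 and 23.5 ± 1.39 CPM in the same order, and rose with MYC (0.70, edgeR adjusted p = 1.42e-08). GMPS, which finishes GMP, and ADSS (now ADSS2), which starts the branch to AMP, were called slightly lower with MYC (-0.16 and -0.22) and not called in the knockdown.

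PRPP itself is made by PRPS1 and PRPS2, and these moved in opposite directions in both steps. PRPS1 had 125, 128 and 130.0 CPM in shDHX15+MYC, 106, 102 and 105 in shDHX15 and 90.3, 88.2 and 89.1 in shcControl. PRPS2 (chromosome X, 12791355 to 12824222) had 32.1, 34.5 and 32.3 CPM in shDHX15+MYC, 113, 106 and 104 in shDHX15 and 127, 125 and 126 in shcControl. PRPS1 thus stepped up and PRPS2 down, with no overlap between groups. PRPS2 fell by 1.70 on the log2 scale with MYC, 3.26-fold, and by 0.23 in the knockdown (edgeR adjusted p = 2.95e-16 and 1.45e-04), and PRPS1 rose by 0.30 and 0.22 (2.14e-07 and 3.94e-05).

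The salvage genes APRT and HPRT1 and the kinase gene GUK1 fell with MYC. APRT, which recycles adenine, had 22.4, 25.1 and 24.9 CPM in shDHX15+MYC, 50.4, 47.9 and 50.4 in shDHX15 and 66.4, 68.2 and 67.9 in shcControl. It was called lower with MYC (-1.04, SE 0.0507, edgeR adjusted p = 2.17e-12) and in the knockdown (-0.45, adjusted p = 1.08e-06). HPRT1, which recycles hypoxanthine and guanine, averaged 38.8 ± 1.13 CPM in shDHX15+MYC, 70.6 ± 4.45 in shDHX15 and 74.9 ± 1.97 in shcControl, and fell with MYC by 0.86. In the knockdown HPRT1 was not called with all libraries (-0.0857, edgeR adjusted p = 0.152), and was called lower (-0.14) without library 1 of shDHX15. GUK1, the GMP kinase, had 137, 143 and 145 CPM in shDHX15+MYC, 241, 318 and 329 in shDHX15 and 280.4, 283 and 281 in shcControl. Its fall with MYC was 1.06 on the log2 scale (edgeR adjusted p = 5.11e-10). Library 1 of shDHX15 lay below shcControl and the other two above it, and without that library GUK1 was called higher in the knockdown (0.20, adjusted p = 2.80e-08, against 0.072 and 0.466 with all libraries).

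**Figure D3:**
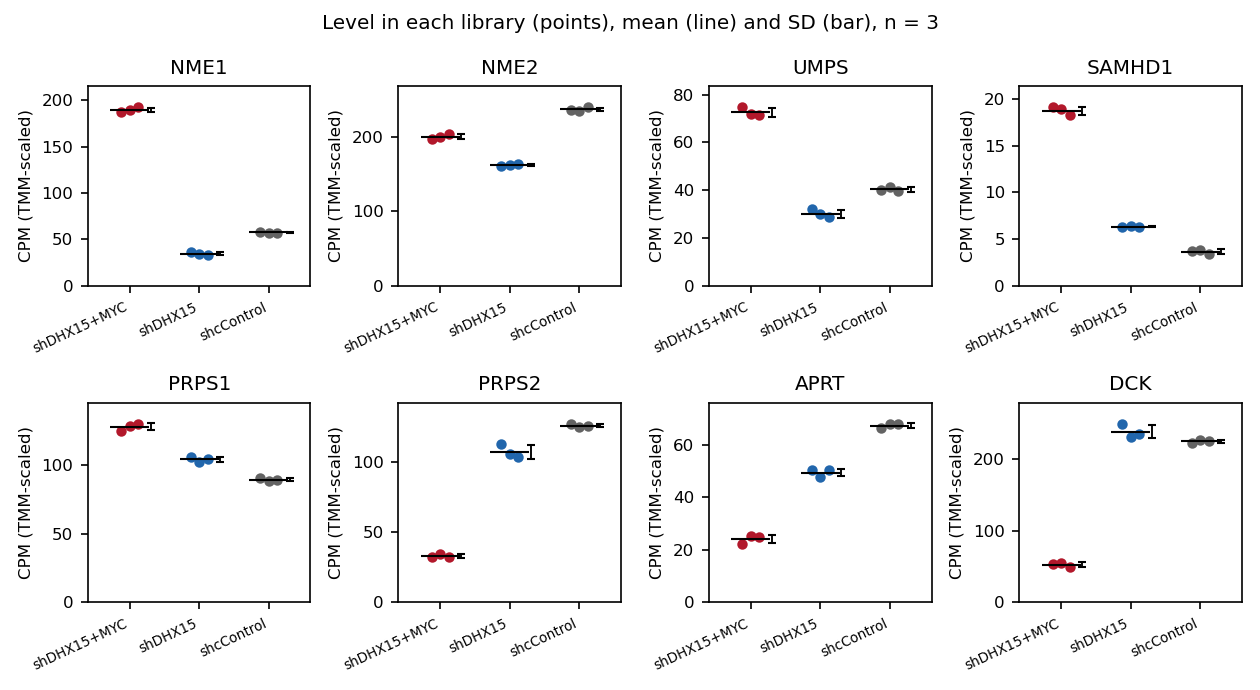
TMM-scaled CPM of 8 enzymes in each library (points), with the mean (line) and SD (bar) of 3 libraries per group, from 0 on each axis. NME1, UMPS and SAMHD1 are highest in shDHX15+MYC, PRPS2, APRT and DCK lowest there, and PRPS1 and PRPS2 step in opposite directions over the 3 groups.

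In the pyrimidine arm, CAD, UMPS, CTPS1 and CTPS2 rose with MYC, and DHODH and CMPK1 fell. CAD, a large protein that carries the first 3 activities of the route, averaged 227 ± 1.80 CPM in shDHX15+MYC, 157 ± 10.7 in shDHX15 and 162 ± 3.53 in shcControl, and rose by 0.54 with MYC (edgeR adjusted p = 1.04e-09). In the knockdown CAD was not called with all libraries (-0.0425, adjusted p = 0.426), and was called lower without library 2 of shDHX15 (-0.098, adjusted p = 0.042). UMPS, which joins PRPP to the ring and gives UMP (chromosome 3, 124730366 to 124749273), had 74.7, 71.7 and 71.4 CPM in shDHX15+MYC, 32.0, 29.99 and 28.6 in shDHX15 and 40.2, 41.4 and 39.5 in shcControl. The groups did not overlap. UMPS was 2.40-fold higher with MYC (a log2 change of 1.27, SE 0.0484, edgeR adjusted p = 7.40e-14) and lower in the knockdown (-0.42, adjusted p = 3.23e-06). DHODH, the dehydrogenase of the inner mitochondrial membrane that acts between them, averaged 11.1 ± 0.725, 16.3 ± 0.443 and 17.6 ± 0.221 CPM in shDHX15+MYC, shDHX15 and shcControl, and fell with MYC by 0.55 (adjusted p = 1.29e-06).

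CTP synthase makes CTP from UTP. CTPS1, the form that proliferating lymphocytes rely on, had 118, 123 and 121 CPM in shDHX15+MYC, 83.9, 87.2 and 82.4 in shDHX15 and 95.8, 93.6 and 101 in shcControl. It changed by 0.51 with MYC and by -0.20 in the knockdown (edgeR adjusted p = 1.06e-09 and 5.67e-04). Its paralog CTPS2 was barely read without added MYC, with 4.33, 4.76 and 4.67 CPM in shDHX15+MYC, 0.416, 0.623 and 0.212 in shDHX15 and 0.845, 1.30 and 0.768 in shcControl. The lowest library held 10 counts of it and the highest 230. CTPS2 was called 10.7-fold higher with MYC (a log2 change of 3.42, SE 0.272, edgeR adjusted p = 2.07e-09) and lower in the knockdown (-1.17, SE 0.316, adjusted p = 0.0061). CMPK1, which phosphorylates UMP and CMP, had 71.3, 70.5 and 65.6 CPM in shDHX15+MYC, 95.9, 82.9 and 85.2 in shDHX15 and 76.7, 77.3 and 81.0 in shcControl. It fell with MYC (-0.35, adjusted p = 7.31e-06). Its rise in the knockdown (0.17, adjusted p = 0.0139) was lost without library 1 or 2 of shcControl (adjusted p = 0.0597 and 0.052).

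The 6 genes of the reductase and the thymidylate route were all called lower with MYC, as were 42.6% of all genes and 54.4% of the better-read ones. RRM1, the catalytic subunit of ribonucleotide reductase, averaged 181 ± 4.46 CPM in shDHX15+MYC, 266 ± 7.73 in shDHX15 and 272 ± 6.81 in shcControl (-0.56 with MYC, edgeR adjusted p = 3.66e-11). RRM2, the subunit that limits activity in S phase, had 421, 417 and 412 CPM in shDHX15+MYC, 567, 580.1 and 568 in shDHX15 and 529, 521 and 526 in shcControl. It was highest in the knockdown, called higher there by 0.12 (adjusted p = 0.00121) and lower with MYC (-0.46, adjusted p = 2.44e-11). TYMS, thymidylate synthase, averaged 384 ± 4.77, 522 ± 35.0 and 493 ± 0.903 CPM in shDHX15+MYC, shDHX15 and shcControl and fell with MYC by 0.44. In the knockdown TYMS was not called with all libraries (0.0821, edgeR adjusted p = 0.0869). It was called higher there without library 1 of shDHX15 (0.11) and with total-count scaling (0.15). TYMS shares 46.6% of its exon length with exons of ENOSF1 and TYMSOS on the other strand, summed over both. ENOSF1 stood at 269 ± 2.57, 395 ± 23.7 and 427 ± 5.03 CPM in shDHX15+MYC, shDHX15 and shcControl. Whether counting used strand is not given in the sources used here, so reads of such pairs cannot be told apart.

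DUT, which keeps uracil out of DNA and feeds dUMP to TYMS, had 90.9, 96.7 and 93.2 CPM in shDHX15+MYC, 122, 165 and 168 in shDHX15 and 133, 133 and 131 in shcControl. Its difference in the knockdown missed the threshold with all libraries (0.20, edgeR adjusted p = 0.051), and was called higher without library 1 of shDHX15 (0.33, adjusted p = 3.78e-12) and under 4 other settings. DTYMK, the thymidylate kinase, averaged 62.0 ± 1.63 CPM in shDHX15+MYC, 87.4 ± 2.19 in shDHX15 and 98.1 ± 2.90 in shcControl and fell with MYC by 0.50. TK1, the thymidine kinase of S phase, averaged 37.7 ± 0.968, 62.6 ± 1.01 and 61.7 ± 0.845 CPM in the same order and fell by 0.73.

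Genes of DNA replication are given beside these S-phase enzymes. Of 40 such genes outside the 33, 26 were called lower and 7 higher in shDHX15+MYC against shDHX15 (median -0.36), and 8 lower and 7 higher in shDHX15 against shcControl (median 0.014). With MYC that is 65.0% lower and 17.5% higher, where better-read genes gave 54.4% and 33.2%, and the difference was not tested. CDT1 and LIG1 fell with MYC by 1.29 and 0.94, while CDC6, POLA1 and GINS3 rose by 0.77, 0.80 and 1.30. The part of a changed share of cells in S phase in the dNTP results was not tested, and in bulk samples fewer such cells and less RNA per cell cannot be told apart.

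The deoxynucleoside kinases parted with MYC. DCK, which phosphorylates deoxycytidine and activates cytarabine (chromosome 4, 70992538 to 71030914), had 53.2, 55.2 and 49.1 CPM in shDHX15+MYC, 249, 231 and 236 in shDHX15 and 223, 227 and 225 in shcControl. It was 4.54-fold lower with MYC (a log2 change of -2.18, SE 0.0425, edgeR adjusted p = 1.11e-17), and its difference in the knockdown was 0.084 (adjusted p = 0.0955), called higher when fitted on 2 groups only (adjusted p = 0.0364) or with total-count scaling (0.00555). MOB1B, whose exons overlap 6.2% of those of DCK on the same strand, stood at 61.3 ± 5.59, 168 ± 5.70 and 123 ± 4.41 CPM in shDHX15+MYC, shDHX15 and shcControl. DGUOK, the mitochondrial kinase of purine deoxynucleosides, had 62.1, 61.0 and 63.8 CPM in shDHX15+MYC, 42.0, 38.9 and 39.1 in shDHX15 and 57.2, 54.5 and 59.3 in shcControl. It changed by 0.64 with MYC and by -0.51 in the knockdown (edgeR adjusted p = 6.81e-10 and 1.99e-07), and in shDHX15+MYC lay near the shcControl level (0.13, adjusted p = 0.0171, a call lost without library 1 or 2 of shcControl or library 3 of shDHX15+MYC).

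SAMHD1 and DCTPP1, which hydrolyse dNTPs, rose with MYC, while DUT, which hydrolyses dUTP, fell (-0.70). SAMHD1, which breaks dNTPs down to nucleosides and restricts viruses, had 19.1, 18.9 and 18.3 CPM in shDHX15+MYC, 6.26, 6.40 and 6.30 in shDHX15 and 3.69, 3.87 and 3.41 in shcControl. It stepped up with each change, by 1.57 with MYC (SE 0.0801, edgeR adjusted p = 4.03e-12) and by 0.79 in the knockdown (SE 0.0921, adjusted p = 2.73e-06), and was 5.14-fold above shcControl in shDHX15+MYC. DCTPP1, which hydrolyses dCTP and its modified forms, had 78.5, 77.1 and 78.2 CPM in shDHX15+MYC, 51.1, 46.7 and 49.9 in shDHX15 and 69.6, 68.1 and 69.0 in shcControl. It changed by 0.66 with MYC and by -0.49 in the knockdown (edgeR adjusted p = 6.45e-11 and 8.30e-08). Exons on the other strand overlap 10.3% of SAMHD1 (TLDC2) and 42.1% of DCTPP1 (ZNF771). TLDC2 stood at 2.25 ± 0.237, 0.972 ± 0.049 and 0.525 ± 0.13 CPM and ZNF771 at 38.6 ± 0.621, 27.5 ± 1.27 and 32.0 ± 0.693 CPM in shDHX15+MYC, shDHX15 and shcControl.

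NME1 and NME2 encode the nucleoside diphosphate kinases that pass phosphate to every nucleoside diphosphate, and lie next to each other on chromosome 17 (51153536 to 51162428 and 51165435 to 51171747). NME1 had 188, 189 and 193 CPM in shDHX15+MYC, 35.8, 34.5 and 32.9 in shDHX15 and 58.0, 57.1 and 57.0 in shcControl. NME2 had 197, 200.1 and 204 CPM in shDHX15+MYC, 160.4, 162 and 164 in shDHX15 and 236, 235 and 239.6 in shcControl. Both were lowest in the knockdown, and with MYC NME1 passed the control level while NME2 did not. NME1 rose 5.52-fold with MYC (a log2 change of 2.47, SE 0.0387, edgeR adjusted p = 7.79e-19) and fell in the knockdown by 0.74 (SE 0.0393, adjusted p = 3.58e-10). NME2 changed by 0.31 and -0.55 (adjusted p = 2.89e-08 and 3.86e-10), and its difference between shDHX15+MYC and shcControl was -0.24 with TMM and 0.022 with total counts. The table also counts a readthrough gene, NME1-NME2, whose exons overlap 18.6% of NME1 and 22.9% of NME2, at 351 ± 6.38 CPM in shDHX15+MYC, 189 ± 0.984 in shDHX15 and 283 ± 2.12 in shcControl. In each group this level is a little below the sum of those of NME1 and NME2, so reads may have been counted in more than 1 of the 3 rows. How reads in shared exons were counted is not given in the sources used here.

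Ratios of paired enzymes within a library do not depend on how that library is scaled. PRPS2 counts over PRPS1 counts gave 0.257, 0.269 and 0.249 in shDHX15+MYC, 1.07, 1.03 and 0.990 in shDHX15 and 1.41, 1.42 and 1.42 in shcControl. IMPDH2 over IMPDH1 gave 5.74, 5.21 and 5.56 in shDHX15+MYC, 11.4, 10.4 and 11.1 in shDHX15 and 13.9, 13.7 and 12.1 in shcControl. Both ratios were lowest with MYC. NME1 over NME2 gave 0.954, 0.946 and 0.943 in shDHX15+MYC, 0.223, 0.212 and 0.201 in shDHX15 and 0.245, 0.242 and 0.238 in shcControl. RRM2 over RRM1 averaged 2.30 in shDHX15+MYC, 2.15 in shDHX15 and 1.93 in shcControl, and CTPS1 over CTPS2 26.4, 222 and 103 (geometric means). In all 15 comparisons (5 ratios, 3 pairs of groups) the libraries did not overlap, which with 3 against 3 gives p = 0.1 in an exact 2-sided permutation test, the smallest that design allows (also 0.1 after Benjamini-Hochberg adjustment over the 15). Counts are not corrected for gene length here, so a ratio is read between groups only.

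**Figure D4:**
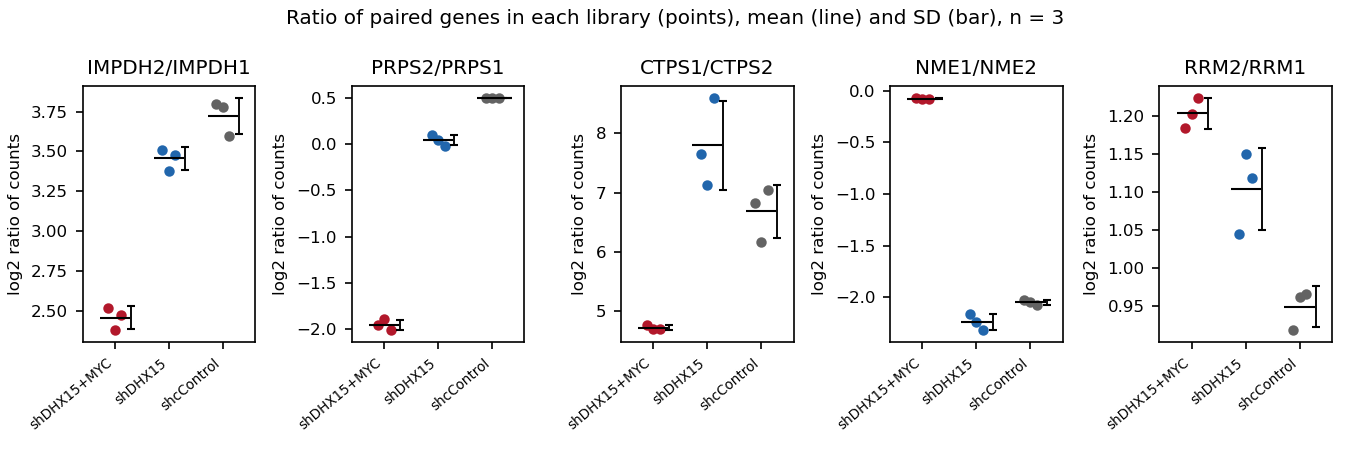
Log2 ratio of the counts of 2 related genes in each library (points), with the mean (line) and SD (bar) of 3 libraries per group; each panel has its own axis. The PRPS2/PRPS1 and IMPDH2/IMPDH1 ratios are lowest and the NME1/NME2 ratio highest in shDHX15+MYC.

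Per kilobase of exon, the members were far apart in level. TYMS stood highest, at 156 CPM per kilobase in shDHX15+MYC, 211 in shDHX15 and 199.5 in shcControl, and CTPS2 lowest, at 0.832, 0.0757 and 0.176. The ring enzyme PAICS stood at 31.0, 44.7 and 49.7 CPM per kilobase, above PPAT at 13.9, 10.9 and 9.74 in the same order.

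Other genes of the pathway were counted from lists and not for how they moved, though the lists were drawn up with earlier results of these data known. Of 15 tested genes that supply one-carbon units, 7 rose and 6 fell with MYC, and 5 were higher and 4 lower in the knockdown. Among better-read genes, unlike in this list, more fell than rose with MYC (54.4% and 33.2%). All genes were near balance there (42.6% lower and 42.1% higher). In the knockdown better-read genes gave 28.3% higher and 27.7% lower, and all genes 22.0% and 23.0%. How this list differs from either background was not tested. MTHFD1L, which releases formate from mitochondria, rose by 1.18 with MYC. MTHFD2 was higher in the knockdown by 0.52. Among 11 genes of PRPP and amino acid supply 3 rose and 5 fell with MYC: ASNS, asparagine synthetase, rose by 1.02, while PRPSAP1, a partner of PRPP synthetase, fell by 1.29 and GLUL, glutamine synthetase, by 1.31. In the knockdown 4 of the 11 were higher and 4 lower. That is 36.4% each way, against 28.3% higher and 27.7% lower among better-read genes. With MYC the 11 gave 27.3% higher and 45.5% lower, against 33.2% and 54.4% of better-read genes.

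Of 20 tested genes of other salvage steps and nucleotide kinases, 5 rose and 12 fell with MYC, and 6 were higher and 5 lower in the knockdown, shares near those of better-read genes (33.2% and 54.4% with MYC, 28.3% and 27.7% in the knockdown). CMPK2, a mitochondrial kinase known as an interferon-induced gene, was lower in the knockdown by 0.98 and rose with MYC by 1.05. Of 22 tested genes of nucleotide breakdown, 7 rose and 12 fell with MYC, and 8 were lower and the other 14 not called in the knockdown. The shares with MYC, 31.8% higher and 54.5% lower, were about those of better-read genes (33.2% and 54.4%). In the knockdown 36.4% were lower and 0.0% higher, against 27.7% and 28.3% of better-read genes, a difference that was not tested. NT5M, a mitochondrial deoxynucleotidase, fell by 2.06 with MYC. ADA, the deaminase whose loss causes an immunodeficiency of lymphocytes, stood at 172 ± 2.98 CPM in shDHX15+MYC, 640.0 ± 13.6 in shDHX15 and 893 ± 11.6 in shcControl, falling by 1.89 and 0.48. PNP, the next enzyme in that route, rose by 1.07 with MYC. Of 7 tested transporters, 6 were lower and 1 higher in the knockdown, and 3 rose and 2 fell with MYC. In the knockdown that is 85.7% lower and 14.3% higher, against 23.0% and 22.0% of all genes and 27.7% and 28.3% of better-read genes. With MYC it is 42.9% higher and 28.6% lower, against 33.2% and 54.4% of better-read genes. These differences were not tested. The equilibrative nucleoside transporter SLC29A1 was lower in both steps (-0.30 and -0.44).

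The E-box printed above was searched for in all promoters of the RefSeq table as CACGTG, which reads the same on both strands. Of 47 promoters of 31 members (some genes have several starts, and ADSL and IMPDH2 have no entry), 7 held it, 14.9%, against 7.26% of 35116 promoters. The windows of PPAT and PAICS overlap and were both counted for the same E-box, so the 7 are not separate sites. Windows of some other members also overlap each other, and the difference from all promoters was not tested. The members with an E-box were PPAT, PAICS, ATIC, DHODH, DCK, DCTPP1 and NME1. Of these, PPAT, ATIC, DCTPP1 and NME1 rose with MYC and PAICS, DHODH and DCK fell. UMPS, CAD and CTPS1 rose and held no CACGTG in these windows. The windows end 50 bases after the start site, and sequence beyond them was not searched, so an E-box there would be missed. An E2F motif, TTTNNCGC with G or C at each N, searched on both strands, was held by 5 member promoters, 10.6%, against 3.31% of all, in GART, PRPS2, TYMS, DUT and DCK. A match is a sequence feature and no measure of binding.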

How the data were processed

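Poly(A) RNA of KOPTK1 cells was read from both ends for 150 bp, per the labels' protocols. Build hg38 and the tools HISAT2 2.2.1, FastQC 0.11.9 and DESeq2 1.32.0 appear in the submitters' processing notes; how reads were assigned to genes was not given in the sources used here. Deposited values were the authors' unscaled whole-number read counts per gene, 17637 genes in 9 libraries. Columns were joined to samples by name and number: those named for GFP were taken as shcControl, and those with hairpin number 1, with or without MYC, as shDHX15+MYC and shDHX15, since the labels name no other target. Here, genes were kept by filterByExpr (15309), scaled by TMM and fitted with edgeR 4.0.16 (R 4.3.3) by quasi-likelihood, with a mean for each group over 9 libraries. Tests were 2-sided with Benjamini-Hochberg adjustment over all tested genes; called means adjusted p under 0.05. This test, adjusted likewise, gave every adjusted p in the results.

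Fold changes are log2 with standard errors (SE). A count of 3, the limit that a count of 0 allows, corresponds to 0.0519 to 0.0708 CPM, for counting error only. The members, lists, motifs and alternatives were chosen with earlier results of these data known. All 33 members are named; values per library are given for members called at least 1.5-fold in the knockdown or 2-fold with added MYC, and for members called in opposite directions in these 2 comparisons. PPAT, PAICS, PRPS1 and DUT were added after their values were seen. From each other list, named genes come from the 3 called genes with the largest change in a direction at a mean log2 CPM of at least 3; some of these are not reported here. Coordinates, exon lengths and overlaps are from GENCODE release 29 (GRCh38, the assembly of hg38). At most 0.026 of a member's 100-base transcript windows, taken every 50 bases, occurred in a gene at another locus. The fit was run on simulated counts with known changes in a small part of the genes and the rest unchanged. That setting differs from the comparisons with added MYC, so it cannot show how scaling and calls behave when most genes change. Alternatives were total-count and DESeq2 size factor scaling, DESeq2 1.42.0, no filter, 2 groups only, a replicate block and leaving out each library; ratios used SciPy 1.17.1.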

Additional observations from a re-analysis of the deposited data

How the results depend on the processing

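Of 405 values that answer a comparison under an alternative, 387 kept their direction and size class. Members called higher in shDHX15 against shcControl numbered 5, and 8 with total-count scaling; leaving out 1 library at a time gave 4 to 8, the highest without library 1 of shDHX15. Total-count scaling gave median log2 fold changes in that comparison of -0.068 for the purine arm and -0.090 for the pyrimidine arm. In shDHX15+MYC against shDHX15 it gave 0.043, 0.72 and -0.28 for the purine, pyrimidine and dNTP arms, and in shDHX15+MYC against shcControl 0.069, 0.67 and -0.16. DESeq2 and its size factors in edgeR gave both -0.12 for the purine arm with MYC, and against shcControl 0.44 for the pyrimidine arm and -0.39 for the dNTP arm. No low-count filter gave -0.45 for that dNTP median. The pyrimidine median with MYC ran from 0.49 to 0.57 over libraries left out. These moves exceed 1 SD between libraries, which is small here; the total-count changes follow from that scaling, and the cause of the others was not tested.

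Members that changed sign did so with total-count scaling: ADSL (0.15) and GMPS (0.043) with MYC against shDHX15, and ADSL (0.086), GMPS (0.069), CMPK1 (0.085) and NME2 (0.022) against shcControl. Libraries of the same number did not deviate together (r from -0.0239 to 0.0412 across genes). Whether they shared a culture or day cannot be told from this, and the labels do not say. With the replicate block 6 members were called higher and 16 lower in the knockdown. DUT was the added one (edgeR adjusted p = 0.0382), and no other member's call changed.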
